A study of Homo sapiens with 6 samples.

Results

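The genes described here are the Wnt ligands, their frizzled receptors, and a set of co-receptors, antagonists, and intracellular regulators, measured in oral squamous cell carcinoma cells with and without the long noncoding RNA DLEU1. They were chosen by name: every gene in the files named WNT or FZD with a number, plus 24 named regulators of the pathway, which gave 53 genes. These genes carry 71 of the 50599 probes of the array, outside its control spots. All 53 are current RefSeq symbols.

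A Wnt ligand is lipidated by the acyltransferase PORCN, leaves the cell, and binds a frizzled (FZD) receptor together with a co-receptor. With LRP5 or LRP6 as co-receptor, the complex that destroys β-catenin (CTNNB1) is shut off, and β-catenin enters the nucleus and acts through TCF and LEF factors. With ROR1 or ROR2, signaling runs without β-catenin and is known for its part in cell movement. The secreted Dickkopf (DKK) protein DKK1, the receptor ubiquitin ligases RNF43 and ZNRF3, and the AXIN, DACT, and NKD proteins hold the pathway back at different steps.

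HSC-3, KON, and Ca9-22 are established lines from oral squamous cell carcinoma. Each was transfected with a small interfering RNA (siRNA) that targets DLEU1, named siDLEU1-2, or with a control siRNA (siCtrl), and total RNA was taken after 72 h. One-color arrays were used, 1 for each line and siRNA, so the replicates are the 3 lines, no change in a single line carries an error, and the number of arrays limits the precision. The arrays used siDLEU1-2 alone among siRNAs against DLEU1, and the siRNA acted transiently in cells in culture. In such bulk RNA, fewer cells expressing a gene and less of its RNA per cell cannot be told apart.

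Levels are given as the log2 of the background-subtracted signal relative to the 75th percentile of the same array, so that 0 is the signal of a probe at that percentile and each unit is a doubling. A level can be compared between arrays for 1 probe but not between probes. The 75th percentile lay between a signal of 200 and 257, and between 43.0% and 45.7% of the array's probes stood well above background. DLEU1 itself had a log2 fold change (siDLEU1-2 over siCtrl) of −4.10 for HSC-3, −3.63 for KON, and −3.44 for Ca9-22 (limma, adjusted p = 0.0227). Of 12 markers of squamous epithelium, 10 were well above background on all 6 arrays and 2 on some. Of 7 fibroblast markers, 1 (COL1A1) was so on all arrays, 1 on some, and 5 on none. Of 4 endothelial markers, 0 passed on all arrays, 3 on some, and 1 on none, while of 4 immune markers with a probe 1 (CD14) was so on all arrays and 3 on some. The part of these non-epithelial signals in the results below was not tested.

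The sequences that decide what was measured are those of the siRNA and of the probes for the genes with several probes and a change. The antisense strand of siDLEU1-2 is shown because its seed (bases 2 to 8, in capitals) is what an siRNA shares with a microRNA. For ROR1 and DKK3, the first 30 of the 60 bases of each probe are shown because the probes of a gene sit at different places in it, and not all ROR1 probes were called. On hg19, the ROR1 probes lie on the plus strand of chromosome 1 at chr1:64608318-64608377, chr1:64644540-64644599, and chr1:64646792-64646851, in the order listed. The DKK3 probes lie on the minus strand of chromosome 11 at chr11:11984915-11984974 and chr11:11986163-11986222.
siDLEU1-2 antisense strand: uUAAGUGCgauaaccccugua
ROR1 probe 1 (A_24_P410605): gacatcccagcttgcggtaaatagaagtca
ROR1 probe 2 (A_23_P12363): atgcacaacttttgtaaatgtggtatacag
ROR1 probe 3 (A_32_P4018): ttcagatctttttctccttttttgcacaaa
DKK3 probe 1 (A_24_P261417): ggtaattgtagggcgaggattataaatgaa
DKK3 probe 2 (A_33_P3261293): tgtatgtgtgcaagccgaccttcgtgggga
The files assign ROR1 probe 1 to the transcript NM_001083592, probe 2 to NM_005012, and probe 3 to ENST00000371079, and both DKK3 probes to NM_015881. Whether a probe lies in coding or untranslated sequence was not determined. The heptamer that pairs with the siRNA seed, GCACTTA, was found in none of the 71 Wnt probes and in 138 of all probes (0.273%), which says only that these letters are not within those 60-base windows. The longest run of bases that a probe called below shared with a probe of another of the 53 genes was 10.

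Detection differed by role. Kept for testing were probes well above background on 1 or both arrays of each line, and 36 of the 71 probes (50.7%) passed, against 39.4% of all probes on the array. They stand for 30 of the 53 genes, and a probe that is low after both siRNAs in 1 line is lost by this filter. On no array were 15 of the 71 probes well above background, and 33 were so on all 6. Of the ligand probes 7 of 24 were kept and of those for intracellular regulators 2 of 10, while 8 of 10 frizzled probes were kept. The 10 genes with no probe well above background on any array were WNT1, WNT2, WNT2B, WNT8A, WNT8B, WNT9A, WNT9B, LGR5, ROR2, and SFRP1.

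After DLEU1 knockdown, 6 of the 36 kept probes, from 4 genes, were called by limma at an adjusted p below 0.05, where 8.50% of all kept probes were called. Probes of ROR1 and FZD2 were higher, 3 of 36 against 3.98% of all kept probes, and probes of FZD6 and DKK3 were lower, 3 of 36 against 4.52%. At an unadjusted p below 0.05 were 9 of the 36 (25%), against 29.5% of all kept probes. Each of the 6 called probes had a signal well above background on every array. They are a receptor pair in opposite directions, a co-receptor, and a secreted protein of the Dickkopf family. No probe of a ligand, of β-catenin, or of a TCF or LEF factor was among them. Only 7 ligand probes and 6 of β-catenin and these factors were kept, too few to read against the 8.50%. The median of the mean log2 fold changes over the 36 probes was −0.087, against 0.0073 over all kept probes, and the median size was 0.37 against 0.29. Of the 36, 11 were lower and 6 were higher in all 3 lines, and 19 had mixed directions, so 47.2% had 1 direction, against 53.6% of all kept probes.

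**Figure D1:**
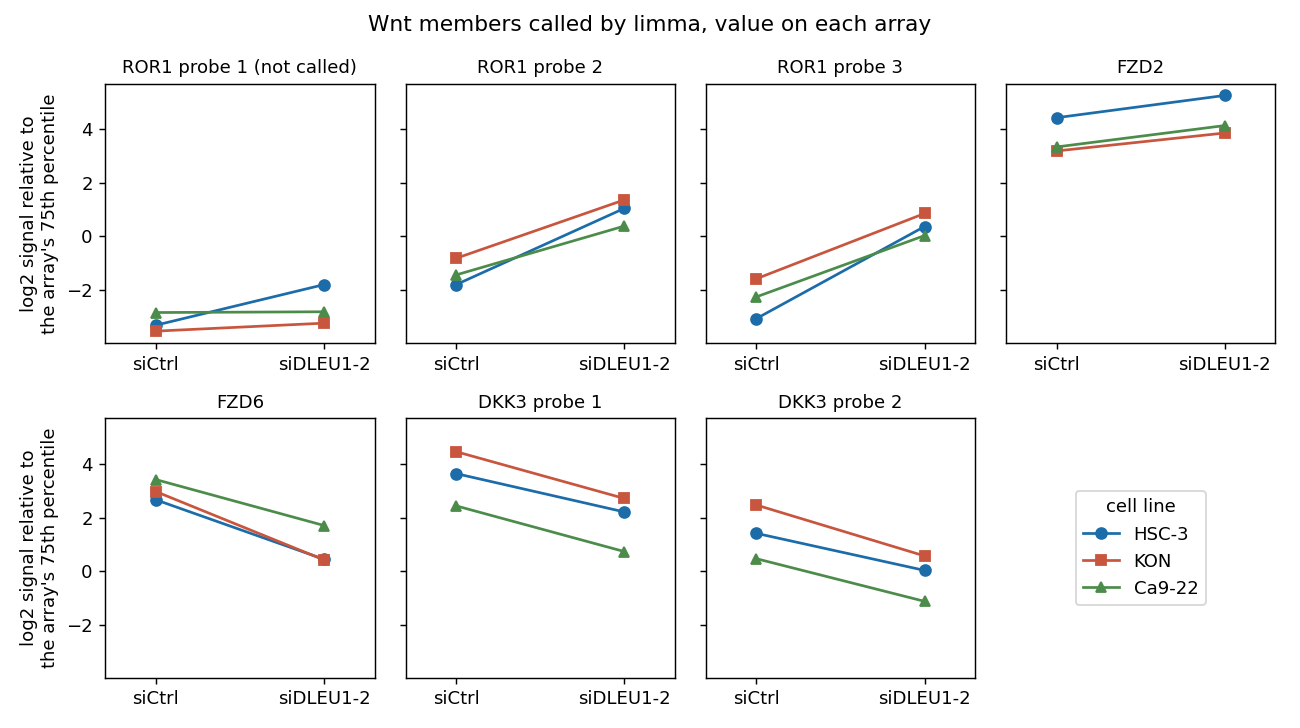
Level of each probe of the 4 genes called by limma, as log2 signal relative to the array's 75th percentile, after siCtrl and siDLEU1-2, with a line joining the 2 arrays of each cell line. ROR1 probes 2 and 3 and FZD2 rose and FZD6 and DKK3 fell in all 3 lines, while ROR1 probe 1 was not called.

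FZD6, a receptor known from planar cell polarity, fell, and had the lowest mean log2 fold change of the 36 kept probes. Its probe (chr8:104344731-104344789, plus strand, NM_003506) had levels of 2.66 for HSC-3, 2.97 for KON, and 3.42 for Ca9-22 after siCtrl, and of 0.44, 0.41, and 1.70 after siDLEU1-2. All siDLEU1-2 arrays lay below all siCtrl arrays. The decrease in HSC-3 was 4.67-fold, that in KON 5.88-fold, and that in Ca9-22 3.29-fold. The log2 fold changes averaged −2.17 ± 0.42 (SD, n = 3 cell lines; limma, adjusted p = 0.0247). With normexp background correction, which shrinks the changes of dim probes, the mean was −2.0 (limma, adjusted p = 0.0120).

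FZD2, a frizzled receptor that can act with ROR co-receptors, rose by less than 2-fold in each line. The levels of its probe (chr17:42636610-42636669, plus strand, NM_001466) were 4.43 for HSC-3, 3.19 for KON, and 3.34 for Ca9-22 after siCtrl, against 5.26, 3.86, and 4.14 after siDLEU1-2. The groups overlapped, with HSC-3 high after either siRNA, but within each line the siDLEU1-2 array was the higher. The mean log2 fold change was 0.77 ± 0.086 (SD, n = 3 cell lines; limma, adjusted p = 0.0433). This call was lost with quantile normalization (adjusted p = 0.0508) and with median centering (adjusted p = 0.0538), while the other 5 probes kept theirs and WNT4 was called in addition.

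The other 6 kept frizzled probes, of FZD1, FZD3, FZD4, FZD5, FZD7, and FZD9, were not called. FZD1 was nearest, with log2 fold changes of −2.03 for HSC-3, −0.74 for KON, and −0.68 for Ca9-22 (limma, adjusted p = 0.0938). FZD4 had 1.19 for HSC-3, 0.15 for KON, and −0.56 for Ca9-22, and FZD5 had 0.51, 1.26, and 0.12. FZD4 thus spanned 0 between lines, while FZD1 was below 0 and FZD5 above 0 in each. FZD7 and FZD9 each passed 2-fold in 1 line, at 1.12 in KON and 1.16 in Ca9-22, respectively, on the log2 fold change scale.

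ROR1, a receptor tyrosine kinase-like protein that binds WNT5A, rose on probes 2 and 3. Probe 2 had levels of −1.81 for HSC-3, −0.82 for KON, and −1.45 for Ca9-22 after siCtrl, and of 1.04, 1.36, and 0.38 after siDLEU1-2. Probe 3 had levels of −3.08, −1.59, and −2.27 after siCtrl and of 0.36, 0.85, and 0.03 after siDLEU1-2, in the same order of lines. On both probes all siDLEU1-2 arrays lay above all siCtrl arrays. On probe 2 the increase was 7.22-fold for HSC-3, 4.55-fold for KON, and 3.55-fold for Ca9-22, and the log2 fold changes averaged 2.29 ± 0.52 (SD, n = 3 cell lines; limma, adjusted p = 0.0247). On probe 3 they were 10.9-fold, 5.44-fold, and 4.90-fold, and the log2 fold changes averaged 2.73 ± 0.63 (SD, n = 3 cell lines; limma, adjusted p = 0.0247). Probe 2 is printed on 10 spots per array, whose log2 signals had an SD of 0.042 to 0.20, an error of the array alone. With normexp the mean log2 fold changes were 1.67 and 1.75, and both probes were still called.

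ROR1 probe 1, which is assigned to another transcript and lies upstream of the other probes, was not called. It was well above background on every array, but it was the dimmest ROR1 probe on each and near the limit of detection. Its levels were −3.32 for HSC-3, −3.55 for KON, and −2.85 for Ca9-22 after siCtrl and −1.81, −3.25, and −2.82 after siDLEU1-2. Only the HSC-3 pair was far apart, and the KON and Ca9-22 pairs differed by 0.30 and 0.028. The mean log2 fold change was 0.61 ± 0.79 (SD, n = 3 cell lines; limma, adjusted p = 0.286), and the difference between the probes was not tested. With normexp the mean of probe 1 was 0.23, and without HSC-3 it was 0.16. ROR2, the other receptor of this kind, was not well above background on any array with either of its probes.

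The remaining co-receptors kept were LRP5, LRP6, and LGR4, the last a receptor for R-spondins. LRP5 had levels of 1.76 for HSC-3, 1.17 for KON, and 0.44 for Ca9-22 after siCtrl and 1.49, 0.87, and 0.24 after siDLEU1-2 (mean log2 fold change −0.26 ± 0.047; SD, n = 3 cell lines; limma, adjusted p = 0.273). LRP6 had levels of 2.12, 0.79, and 2.0 after siCtrl and 1.78, 0.72, and 2.01 after siDLEU1-2 (mean −0.14; limma, adjusted p = 0.585; −0.035 without HSC-3 and −0.21 without Ca9-22). The LRP5 differences were small and alike in all lines, and LRP6 was level in Ca9-22. LGR4 had log2 fold changes of −0.22 for HSC-3, 0.21 for KON, and −0.11 for Ca9-22. None of these probes was called.

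DKK3, a divergent Dickkopf family member known for its loss in many tumors, was grouped here with the secreted antagonists and fell on both of its probes. Whether it holds Wnt signaling back in these cells was not tested. Probe 1 had levels of 3.64 for HSC-3, 4.46 for KON, and 2.44 for Ca9-22 after siCtrl, and of 2.21, 2.71, and 0.73 after siDLEU1-2. Probe 2 had levels of 1.41, 2.47, and 0.46 after siCtrl and 0.02, 0.56, and −1.13 after siDLEU1-2. The siRNA groups overlapped on either probe, with KON high and Ca9-22 low throughout, but the siDLEU1-2 array was the lower one in every line. Probe 1 decreased by 2.70-fold for HSC-3, 3.36-fold for KON, and 3.27-fold for Ca9-22, and its log2 fold changes averaged −1.63 ± 0.17 (SD, n = 3 cell lines; limma, adjusted p = 0.0247). Probe 2 gave 2.61-fold, 3.74-fold, and 3.02-fold, and its log2 fold changes also averaged −1.63, with an SD of 0.26 over the lines (limma, adjusted p = 0.0247).

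DKK1, the classical inhibitor that binds LRP5 and LRP6, differed in direction between lines. Its levels were 4.31 for HSC-3, 4.17 for KON, and 5.89 for Ca9-22 after siCtrl and 5.27, 3.44, and 6.54 after siDLEU1-2. The siDLEU1-2 array was higher in HSC-3 and Ca9-22 and lower in KON. The mean log2 fold change was 0.30 ± 0.90 (SD, n = 3 cell lines; limma, adjusted p = 0.633). SFRP1, a secreted frizzled-related antagonist, was not well above background on any array.

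**Figure D2:**
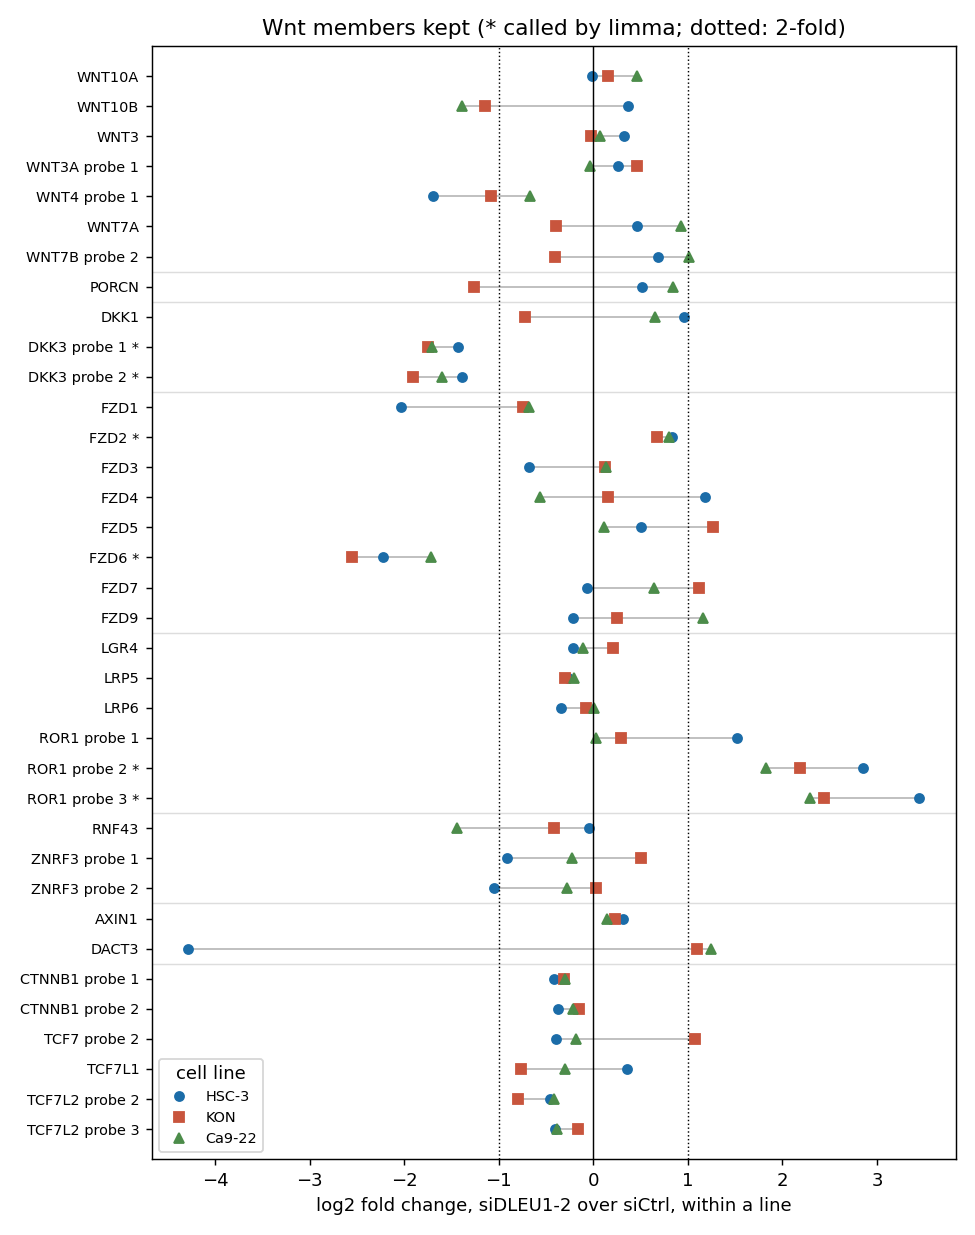
Log2 fold change (siDLEU1-2 over siCtrl) of each of the 36 kept probes in HSC-3 (circles), KON (squares), and Ca9-22 (triangles), grouped by role from ligands at the top to β-catenin and the transcription factors at the bottom; a gray bar joins the 3 lines, dotted lines mark 2-fold, and asterisks mark probes called by limma. The called probes of DKK3, FZD6, and ROR1 lay beyond 2-fold in all lines, and DACT3, whose HSC-3 siDLEU1-2 and KON siCtrl values were not well above background, spanned 5.52 units.

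By the rule of a change over 2-fold in all 3 lines, 6 of the 36 probes were counted, against 4.38% of all kept probes. They were the FZD6 probe, both DKK3 probes, ROR1 probes 2 and 3, and DACT3. Within single lines, 11 probes passed 2-fold in HSC-3 (14.2% of all kept probes), 12 in KON (14.6%), and 10 in Ca9-22 (13.0%). DACT3, an intracellular protein that binds Dishevelled, was the only one of the 6 with opposite directions. Its levels were −1.46 for HSC-3, −3.75 for KON, and −2.85 for Ca9-22 after siCtrl, and −5.74, −2.65, and −1.61 after siDLEU1-2. The HSC-3 array after siDLEU1-2 and the KON array after siCtrl were not well above background. For such pairs only a bound can be given, namely the brighter array against the dim value or, where this is higher, the detection floor of the dim array (its lowest value well above background). In HSC-3 DACT3 was lower by at least 4.39-fold, and it was at least 2.13-fold higher in KON and 2.37-fold higher in Ca9-22 (mean log2 fold change −0.65 ± 3.15; SD, n = 3 cell lines; limma, adjusted p = 0.760). These bounds hold for the background subtraction of the scanner software, and with normexp the log2 fold changes were −0.98 in HSC-3 and 0.33 in KON.

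No ligand was called by limma (8.50% of all kept probes were), and 1 of the 7 kept ligand probes had an unadjusted p below 0.05 (29.5% of all kept probes). These are too few probes to read against those shares. The 7 kept ligand probes, of WNT3, WNT3A, WNT4, WNT7A, WNT7B, WNT10A, and WNT10B, had mean log2 fold changes from −1.15 to 0.43 with a median of 0.20. WNT4 was nearest to a call, with log2 fold changes of −1.70 for HSC-3 and −0.67 for Ca9-22. In KON the array after siDLEU1-2 was not well above background, and WNT4 was at least 1.27-fold lower there. With the dim value as measured, the mean log2 fold change was −1.15 (limma, adjusted p = 0.0545), and it was −0.44 with normexp. With quantile normalization and median centering WNT4 was called (limma, adjusted p = 0.0490 and 0.0464). The other WNT4 probe (A_33_P3321070), which was not tested, was lower after siDLEU1-2 in HSC-3, by −0.92 on the log2 scale. In KON its siDLEU1-2 array was the higher by at least 1.37-fold, opposite to the kept probe. WNT10B spread over both directions, at 0.37, −1.15, and −1.39 in HSC-3, KON, and Ca9-22. PORCN, the acyltransferase that lipidates Wnt ligands, had levels of 3.80 for HSC-3, 5.65 for KON, and 4.22 for Ca9-22 after siCtrl and 4.31, 4.40, and 5.07 after siDLEU1-2. It was lower in KON and higher in the other lines (mean log2 fold change 0.032 ± 1.13; SD, n = 3 cell lines; limma, adjusted p = 0.973).

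WNT6 was outside the tested probes because it was not well above background in Ca9-22, and it is described because its values stood out when they were seen. With siCtrl first, its levels in HSC-3 were 2.52 and 5.08, those in KON −2.10 and 1.63, and those in Ca9-22 −4.22 and −4.31. The siDLEU1-2 array was 5.91-fold higher in HSC-3 and 13.3-fold higher in KON, with no test and no replicate within a line. Some other ligands were well above background on 1 side of a pair only, so that a bound applies. WNT11 was at least 3.59-fold higher after siDLEU1-2 in KON and at least 2.31-fold higher in Ca9-22. WNT16 was at least 2.03-fold lower in Ca9-22, and a WNT7B probe (A_24_P911607) was at least 3.0-fold higher in HSC-3. With normexp these 4 log2 fold changes were 0.71 and 0.47 for WNT11, −0.68 for WNT16, and 0.56 for WNT7B. Another WNT7B probe (A_33_P3248903) was at least 1.88-fold higher in HSC-3. The kept WNT7B probe, well above background on every array, was only 1.60-fold higher in HSC-3. It was 1.32-fold lower in KON and 2.02-fold higher in Ca9-22, and it was not called. In all, 15 pairs of 12 Wnt probes had a single side well above background, and 7 of them had a bound of 2-fold or more.

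The receptor ubiquitin ligases were not called by limma on any of 3 probes (0 with an unadjusted p below 0.05), a number too small to read against the 8.50% called and 29.5% unadjusted over all kept probes. Their mean log2 fold changes lay between −0.63 and −0.21. RNF43, itself a known target of the pathway, had levels of 4.30 for HSC-3, 0.80 for KON, and 3.54 for Ca9-22 after siCtrl and 4.25, 0.39, and 2.10 after siDLEU1-2. Its siDLEU1-2 array was lower in each line, by 2.71-fold in Ca9-22 and by 1.04-fold in HSC-3 (mean log2 fold change −0.63 ± 0.72; SD, n = 3 cell lines; limma, adjusted p = 0.244). The probes of ZNRF3 had log2 fold changes of −1.05 and −0.91 for HSC-3, 0.027 and 0.50 for KON, and −0.28 and −0.23 for Ca9-22.

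CTNNB1, the β-catenin gene, was measured by a pair of probes. The probe with 10 spots (chr3:41281749-41281808) had levels of 4.59 for HSC-3, 5.37 for KON, and 4.18 for Ca9-22 after siCtrl and 4.22, 5.21, and 3.96 after siDLEU1-2. The other probe had levels of 1.76, 2.80, and 1.08 after siCtrl and 1.35, 2.5, and 0.78 after siDLEU1-2. All 6 within-line differences were below 0, and the largest was 1.33-fold. The mean log2 fold changes were −0.25 ± 0.11 and −0.34 ± 0.066 (SD, n = 3 cell lines; limma, adjusted p = 0.304 and 0.176). AXIN1, a scaffold of the destruction complex, had levels of 0.47, 0.62, and 1.09 after siCtrl and 0.78, 0.85, and 1.24 after siDLEU1-2 in HSC-3, KON, and Ca9-22 (mean log2 fold change 0.23 ± 0.082; SD, n = 3 cell lines; limma, adjusted p = 0.323).

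AXIN2, a feedback inhibitor whose transcription is often used as a readout of β-catenin signaling, was barely detected. One of its probes (chr17:63525389-63525448) was well above background only in KON after siDLEU1-2. Its levels were −5.79 and −5.83 for HSC-3, −6.08 and −2.75 for KON, and −5.66 and −3.43 for Ca9-22, with siCtrl first in each pair. In KON it was at least 2.14-fold higher after siDLEU1-2, and with normexp the log2 fold change there was 0.70. The other AXIN2 probe was not well above background on any array, with levels between −5.97 and −5.02.

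Of the TCF and LEF factors, none of 4 kept probes was called by limma (1, of TCF7L2, had an unadjusted p below 0.05), where 8.50% of all kept probes were called and 29.5% had such a p. The mean log2 fold changes of these 4 lay between −0.56 and 0.17. TCF7 had levels of −0.45 for HSC-3, −0.15 for KON, and −1.09 for Ca9-22 after siCtrl and −0.84, 0.92, and −1.28 after siDLEU1-2 on its kept probe (mean log2 fold change 0.17 ± 0.80; SD, n = 3 cell lines; limma, adjusted p = 0.779). TCF7L1, a factor known mainly as a repressor, had levels of 1.87, −0.96, and 0.13 after siCtrl and 2.23, −1.73, and −0.16 after siDLEU1-2 (mean −0.24 ± 0.57; SD, n = 3 cell lines; limma, adjusted p = 0.576). On these probes TCF7 stood higher after siDLEU1-2 in KON and TCF7L1 in HSC-3, and each was lower in the other lines. A second TCF7 probe (A_33_P3250671) was not tested. With siCtrl first, its levels were −3.31 and −2.87 for HSC-3, −2.15 and −1.54 for KON, and −3.44 and −3.59 for Ca9-22, where both arrays and the HSC-3 array after siCtrl were not well above background. It was thus higher after siDLEU1-2 in KON, like the kept probe, and by at least 1.35-fold also in HSC-3, unlike it. LEF1 was well above background only in Ca9-22, where its level was 0.35 after siCtrl and −0.82 after siDLEU1-2, a difference of 2.24-fold with no test.

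TCF7L2, the factor best known from the intestine, was measured by 4 probes, which gave 12 pairs of probe and line. In 7 of these both arrays were well above background, and all 7 log2 fold changes were below 0, from −0.80 to −0.16. In 3 pairs 1 array was well above background and in 2 pairs neither was. Its kept probes had levels of −0.06 for HSC-3, −0.07 for KON, and −0.71 for Ca9-22 after siCtrl against −0.52, −0.87, and −1.13 after siDLEU1-2 on the first, and of −2.59, −2.60, and −3.33 against −2.99, −2.76, and −3.71 on the second. The last of these values was not well above background. Neither was called, with mean log2 fold changes of −0.56 ± 0.21 and −0.32 ± 0.13 (SD, n = 3 cell lines; limma, adjusted p = 0.0933 and 0.219). With normexp the means were −0.39 and −0.095, and with dim values at the detection floor the second was −0.18. For these kept probes the log2 fold changes stayed below 0 in 6 of 6 pairs under 3 other scalings, normexp, and the series table, and in 5 of 6 pairs when dim values were set to the detection floor, where the exception was 0.038. The other probes were not tested. Their levels were −2.63, −3.0, and −4.01 after siCtrl and −3.84, −4.02, and −5.13 after siDLEU1-2 on the third, with only the HSC-3 and KON arrays after siCtrl well above background. On the fourth they were −2.21, −1.97, and −3.53 after siCtrl and −2.54, −2.41, and −5.29 after siDLEU1-2, with both Ca9-22 arrays not well above background.

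The TCF and LEF factors bind a motif whose core letters are CTTTGAT, or ATCAAAG on the other strand. Neither spelling was found in the RefSeq promoter windows (300 bases around the start, GRCh38.p14) of the 38 Wnt genes that have one in the table, where 2.62% of all 35116 promoters hold it. This says only that these letters are not in those windows.

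The genes also differed between the cell lines. In contrasts between lines from the same limma fit, 17 of the 36 kept probes (47.2%) differed between HSC-3 and KON, against 36.2% of all kept probes. Between HSC-3 and Ca9-22 the count was 18 (50%, against 36.6%), and between KON and Ca9-22 it was 14 (38.9%, against 33.2%). In all, 24 probes were called in at least 1 of these contrasts, 8 in all 3, and 12 in none. The median range of the 3 line means was 1.35 on the log2 scale, against 0.96 over all kept probes. The 2 arrays of a line differ in siRNA, so the spread behind these tests is what is left after both terms.

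**Figure D3:**
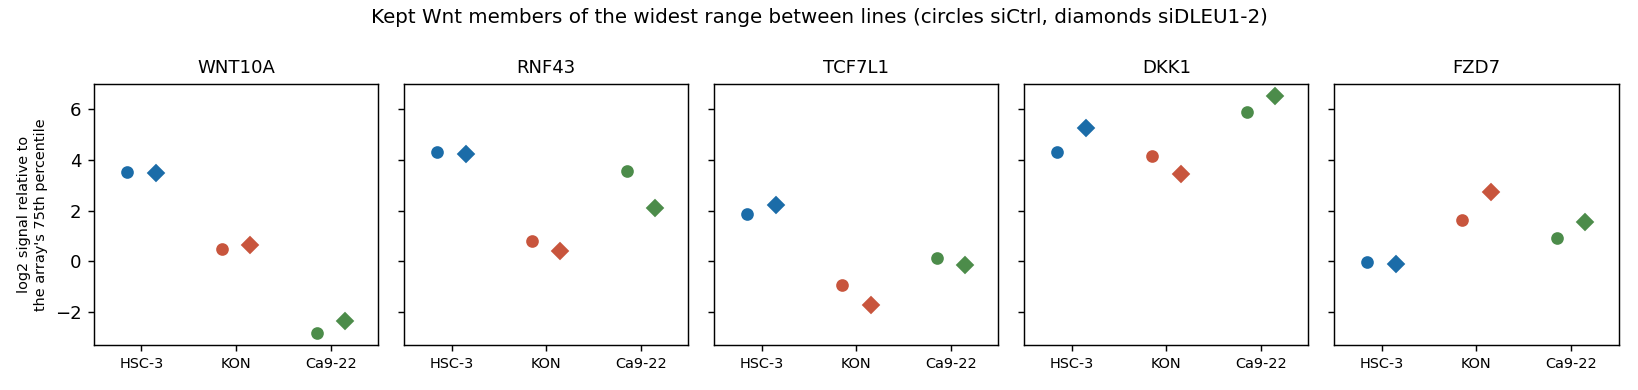
Level on each array of the 5 kept Wnt probes with the widest range of line means, as log2 signal relative to the array's 75th percentile, by cell line, with circles for siCtrl and diamonds for siDLEU1-2. WNT10A stepped down from HSC-3 to KON to Ca9-22, and RNF43 and TCF7L1 were lowest in KON.

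WNT10A, a ligand active in skin and teeth, had the widest range. Its levels were 3.50 and 3.49 for HSC-3, 0.48 and 0.64 for KON, and −2.83 and −2.37 for Ca9-22, with siCtrl first in each pair. The siRNA pairs nearly coincided while the line means spanned 6.10 on the log2 scale, and all 3 contrasts were called (limma, adjusted p = 0.0049 for HSC-3 against KON, 0.0024 for HSC-3 against Ca9-22, and 0.0052 for KON against Ca9-22). RNF43 followed with a range of 3.68, TCF7L1 with 3.39, DKK1 with 2.41, and FZD7 with 2.24. RNF43 and TCF7L1 were lowest in KON and also differed in all 3 contrasts, whereas DKK1 differed only between KON and Ca9-22 (limma, adjusted p = 0.0200). FZD7 had levels of −0.03 and −0.09 for HSC-3, 1.62 and 2.74 for KON, and 0.90 and 1.54 for Ca9-22. The order was KON, Ca9-22, and HSC-3, and KON and Ca9-22 were not called apart (limma, adjusted p = 0.0792).

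Of the genes called for the siRNA, ROR1 was not called between lines on any of its probes. DKK3 differed in all 3 contrasts on both probes, highest in KON and lowest in Ca9-22, with line means of 3.59, 2.93, and 1.58 in KON, HSC-3, and Ca9-22 on probe 1. FZD2 was higher in HSC-3 than in KON by 1.32 and than in Ca9-22 by 1.11 on the log2 scale (limma, adjusted p = 0.0091 and 0.0119), and the last pair was not called apart (adjusted p = 0.358). FZD6 differed only between HSC-3 and Ca9-22, with HSC-3 minus Ca9-22 at −1.01 on the log2 scale (limma, adjusted p = 0.0379). LGR4, the R-spondin receptor, was higher in HSC-3 than in KON by 2.16 and than in Ca9-22 by 2.04 on the log2 scale (limma, adjusted p = 0.0065 and 0.0063).

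**Figure D4:**
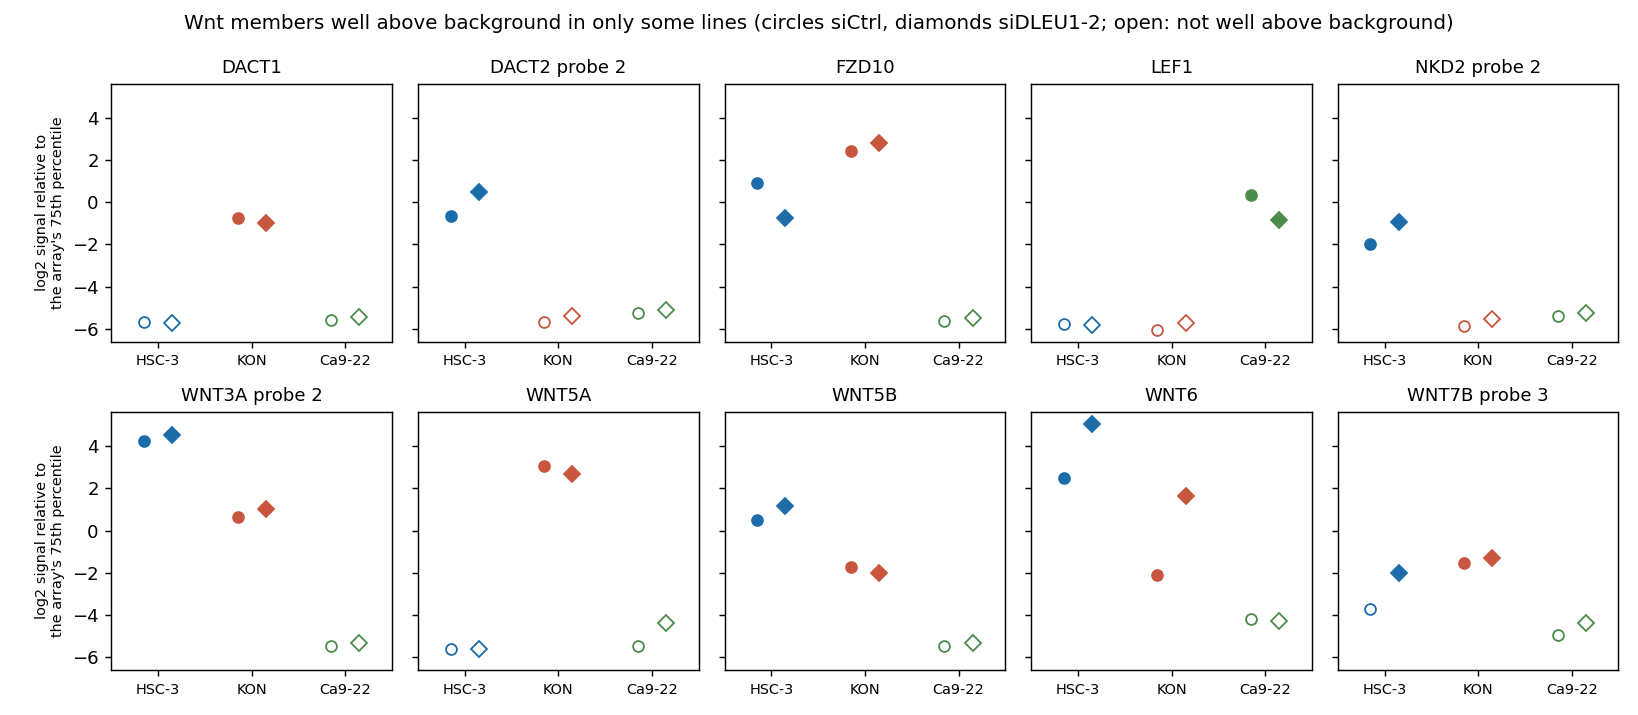
Level on each array of the Wnt probes that were not well above background in at least 1 line and had a bound of at least 3-fold between lines, with circles for siCtrl, diamonds for siDLEU1-2, and open symbols for values not well above background. WNT5A and DACT1 were filled only in KON, DACT2 and NKD2 only in HSC-3, and LEF1 only in Ca9-22.

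A further set of members was well above background on both arrays of some lines and on no array of another, and such probes were not tested. WNT5A, the ligand of ROR receptors, had levels of 3.07 and 2.70 in KON, with siCtrl first, and lay between −5.65 and −4.38 in the other lines. The KON mean was at least 88.8-fold above that of HSC-3 and at least 76.1-fold above that of Ca9-22. DACT1 and FZD8 were also well above background only in KON, where DACT1 was at least 6.60-fold above HSC-3 and 5.66-fold above Ca9-22, and FZD8 at least 1.62-fold and 1.39-fold. DACT2 and NKD2 were so only in HSC-3, each on 1 of its probes. DACT2 was at least 12.1-fold above KON and 9.74-fold above Ca9-22, and NKD2 at least 4.69-fold and 3.77-fold. LEF1 was so only in Ca9-22, at least 10.2-fold above HSC-3 and 10.9-fold above KON.

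Several ligands were well above background on the HSC-3 and KON arrays and not on those of Ca9-22. WNT6 was at least 143-fold higher in HSC-3 than in Ca9-22 and at least 8.75-fold higher in KON, taking the mean of the 2 arrays of a line. The siDLEU1-2 arrays raised the WNT6 means to 3.80 and −0.24, from levels of 2.52 and −2.10 after siCtrl. The bounds from siCtrl alone would therefore be lower. WNT5B was at least 18.5-fold and 2.81-fold higher in HSC-3 and KON, and the receptor FZD10 at least 10.9-fold and 64.5-fold. WNT3A had a probe (A_23_P385690) with levels of 4.24 and 4.52 for HSC-3, 0.63 and 1.04 for KON, and −5.49 and −5.34 for Ca9-22, at least 215-fold higher in HSC-3. The other WNT3A probe was detected on every array, with levels of −0.92 and −0.66 for HSC-3, −2.93 and −2.46 for KON, and −2.71 and −2.75 for Ca9-22. HSC-3 was highest on either WNT3A probe, but on the latter KON and Ca9-22 were not called apart (limma, adjusted p = 0.913). Over all 71 probes, 48 were well above background on at least 1 array of HSC-3, 52 of KON, and 40 of Ca9-22.

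The wider pathway was described by a list of 99 other genes, of which 97 have a probe under that name. Of its 93 kept probes, 8 from 7 genes were called, 8.60% against the 8.50% of all kept probes, with 2 higher and 6 lower. Their median of the mean log2 fold changes was 0.073. Among regulators of secretion and of the extracellular step, 3 of 10 kept probes were called, both kept probes of KREMEN1, a receptor for Dickkopf proteins, at −1.76 and −1.58, and 1 of 3 kept probes of WLS, the carrier of Wnt ligands, at −1.03 on the mean log2 fold change scale. The second of these KREMEN1 probes and the called WLS probe were not well above background in KON after siDLEU1-2, where they were at least 2.26-fold and 1.80-fold lower. With normexp their means were −0.75 and −0.46, and the WLS call was lost (limma, adjusted p = 0.0871). The other kept WLS probes had means of −0.75 and 0.086 and were not called. VANGL1, a planar polarity protein, was the only one called of 10 kept probes of its class (mean log2 fold change −0.92; limma, adjusted p = 0.0315). In the nucleus, 1 of 2 probes of CTNNBIP1, which keeps β-catenin from TCF factors, was called at −0.75 (the other had −0.11), and 1 of 2 kept probes of the corepressor CTBP2 at 0.79 (the other had 0.70). These were 2 of 23 kept probes for nuclear proteins, of which 11 had an unadjusted p below 0.05, against 29.5% of all kept probes. By limma none of 26 probes for cytoplasmic proteins such as Dishevelled and GSK3B was called (5 with an unadjusted p below 0.05). Of 20 kept probes for 16 widely used target genes, limma called 2. The unadjusted p was below 0.05 for 14 of the 20 probes, against 29.5% of all kept probes. Some of these probes share a gene, so they are not independent. Their mean log2 fold changes went in both directions, from −3.15 to 2.65, with a median of 0.59. Called were BAMBI, a decoy receptor of TGF-β signaling, at 2.65 (limma, adjusted p = 0.0469), and a CD44 probe at −3.15, while another kept CD44 probe had 1.04 and was not called. BAMBI was not well above background in HSC-3 after siCtrl, and it was at least 11.3-fold higher after siDLEU1-2 there. Its mean was 1.79 with normexp, and it was still called.

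The adjusted p-values of the Wnt probes rest on all 3 lines and on the filter. With HSC-3 left out, limma called 0 of the 36 Wnt probes (13 at an unadjusted p below 0.05), and with KON left out also 0 (12 unadjusted). With Ca9-22 left out it called 3, FZD6 and ROR1 probes 2 and 3. Without any filter on dim probes it called 0 of 71 (10 unadjusted), and without the cell line as a block it called 0 of 36 (4 unadjusted). The share of all probes called in each of these fits is not given here, so the lost calls cannot be read as particular to the Wnt probes. With each line left out, the mean log2 fold change ranged from −2.39 to −1.97 for FZD6, from 2.01 to 2.52 for ROR1 probe 2, from 2.37 to 2.94 for ROR1 probe 3, from −1.73 to −1.57 and −1.75 to −1.49 for the DKK3 probes, and from 0.74 to 0.82 for FZD2. The fits with no filter and no block have the same mean log2 fold changes as reported.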

How the data were processed

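The authors deposited the scanner output of 6 one-color arrays, with an intensity for each spot from Feature Extraction 10.7.3.1 per the file headers (background subtracted and spatially detrended by the software, not normalized between arrays), and a series table of the same intensity. How the authors normalized their values in GeneSpring is not given in the sources used here. Probe positions and gene names are those of the files (hg19).

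Control and outlier spots were left out, spots of a probe were averaged as log2 values, and the 75th percentile of each array was subtracted. None of the spots was saturated. Well above background means that 50% or more of a probe's spots were, and the 19956 probes for which this held on 1 or both arrays of each line were tested. The siRNA and the cell line entered limma 3.58.1 (R 4.3.3, lmFit and eBayes), the line as a block, with Benjamini-Hochberg adjustment over all tested probes at 0.05. The p-values rest on the spread between lines, which eBayes draws toward a spread shared by all tested probes. For a probe with a small SD, the error used is larger than that SD implies, as for LRP5 (SD 0.047, limma standard error 0.13). The arrays of a line deviated together from the mean of their siRNA (correlations 0.83, 0.81, and 0.82), and the pairing comes from the line. The scripts were tested on simulated data. All arrays were on 1 slide, so no slide block was fitted.

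The genes, the pathway list, and the tests were chosen with earlier results of these data known. Values on each array are given for genes called or over 2-fold in all lines, the 5 called probes of the widest range between lines, and CTNNB1, LRP5, LRP6, AXIN1, AXIN2, LEF1, TCF7, TCF7L1, TCF7L2, and DKK1. WNT6, PORCN, WNT3A, WNT5A, and other genes were named after their values were seen. Probe and siRNA sequences were read from the array files and the study's supplement, and promoters from RefSeq. The alternatives were quantile normalization, median centering, the same percentile over fully detected probes, normexp (offset 50), the series table, other filters, a detection floor, each line left out, no replicate block, the methods' t-test, other fold thresholds, and the mean of a gene's probes. A count of probes moving the same way in all lines was added later.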

Additional observations from a re-analysis of the deposited data

Results flagged for a closer look

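The log2 fold changes of DACT3 ranged over 5.52 between the lines, from −4.28 in HSC-3 to 1.09 in KON and 1.24 in Ca9-22. This probe was singled out because its change in HSC-3 ran against that in the other lines. Each line has 1 pair of arrays, so the difference between lines was not tested, and the HSC-3 array after siDLEU1-2 and the KON array after siCtrl were not well above background.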

How the results depend on the processing

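Of the 36 Wnt probes, limma called 6 as reported, 0 of 71 with no filter on dim probes (10 with an unadjusted p below 0.05), 0 without the cell line as a replicate block (4 unadjusted), 0 by the methods' t-test (3 unadjusted), and 0 to 3 with each line left out. The fits without HSC-3 and without KON gave 0, and that without Ca9-22 gave 3. The share of all probes called is not given for these fits, so the lost calls cannot be read as particular to the Wnt probes. The mean log2 fold changes of the 6 probes moved by less than 1.5 times in these fits, and not at all with no filter or no block. Of the pathway list, 8 probes were called as reported, 13 with normexp, 0 of 145 with no filter (35 unadjusted), 0 without the replicate block (10 unadjusted), and 0 to 1 with each line left out (22 to 29 unadjusted). The count over 2-fold in all lines was 10 at 1.5-fold and 3 at 3-fold, and 5 when DACT3, whose log2 fold changes had opposite signs, was not counted. The median log2 fold change of −0.087 was −0.16 with median centering, −0.036 with normexp, 0.032 for probes well above background on all arrays, 0.17 with no filter (0.14 over all probes), −0.0034 with the floor, and −0.21 to −0.0059 with each line left out. The sign of the DACT3 mean turned with the floor (0.067). With each line left out, means ranged from −1.59 to 1.17 for DACT3 and −0.038 to 0.81 for DKK1, with the sign turned without HSC-3, and from −0.29 to 0.45 for TCF7 and −0.53 to 0.029 for TCF7L1, turned without KON. FZD2 lost its call with quantile normalization and median centering, where its mean was 0.70 in either case, and WNT4 was called in its place at −1.18 and −1.22 (limma, adjusted p = 0.0490 and 0.0464). Between lines 24 of the 36 probes were called, and 23 to 26 under the other scalings and the floor. The count was 25 of 33 for probes well above background on all arrays and 30 of 71 with no filter, a lower share. The contrasts between lines were not run with a line left out or with no block. The causes were not tested. With 1 array per line and siRNA, a change in a single line has no error, and probes near background have only bounds.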
